A study of Mus musculus with 4 samples.

Results

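The proteins that bind small nucleolar RNAs (snoRNAs) and those that assemble them into particles (snoRNPs) were examined in the brain of Adar2-/- mice. The set was chosen by gene symbol and held 10 genes, Dkc1, Nop10, Nhp2, Gar1, Naf1, Shq1, Fbl, Nop56, Nop58 and Nolc1, out of 24515 symbols on the array. Each had at least 1 transcript cluster, meaning a set of probes summarised as 1 transcribed unit, and the 10 genes together had 12 of the 33793 clusters. The additional clusters both carried the symbol Nop56.

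Whole brains came from adult female mice of strain 129SV, 2 wild type and 2 Adar2-/-, and total RNA of each was hybridised to 1 Affymetrix whole-transcript array. Mice of both genotypes were siblings that also carried the pre-edited Gria2 allele, Gria2 R/R, which rescues the early lethality of Adar2-/- mice, so the wild-type mice were not wild type at Gria2. ADAR2, encoded by Adarb1, converts adenosines to inosines in double-stranded RNA. The knockout is constitutive, and the sources do not say whether the arrays of one genotype came from different litters.

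SnoRNPs modify ribosomal and spliceosomal RNA at positions that the snoRNA selects by base pairing. H/ACA particles isomerise uridine to pseudouridine and contain dyskerin (Dkc1), Nop10, Nhp2 and Gar1, whereas C/D particles methylate the ribose and contain fibrillarin (Fbl), Nop56, Nop58 and the protein encoded by Nhp2l1. Naf1 and Shq1 are not part of the finished H/ACA particle. Shq1 holds newly made dyskerin, and Naf1 occupies the place that Gar1 takes in the mature particle. Nolc1, or Nopp140, is a phosphoprotein that shuttles between nucleolus and Cajal bodies and binds both kinds of snoRNP. Most mammalian snoRNAs are cut from introns of host genes, some of which encode snoRNP proteins themselves.

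Naf1 and Shq1, the H/ACA assembly factors, were lower in both knockout brains, at 76.3% and 77.9% of the wild-type level on the linear scale, with an unadjusted limma p below 0.05 that Shq1 lost in 4 of 12 alternative settings. The mRNA clusters of the 4 H/ACA core proteins, the 3 C/D core proteins and Nolc1 differed by 0.12 or less on the log2 scale, in either direction, with p above 0.05. Assembly factors and core proteins were not tested against each other, and their intervals overlapped. By symbol, 3 of the 12 clusters were lower and 0 were higher at an unadjusted limma p below 0.05. Over all clusters the share was 2.31% for lower and 3.64% for higher, 779 and 1230 clusters. This balance depended on scaling, with 1229 lower and 801 higher after centring the arrays on their medians, 944 and 896 after quantile normalization and 915 and 924 after cyclic loess normalization. No member passed after Benjamini-Hochberg adjustment in limma, where 0 of 33793 clusters, or 0%, passed and 2009 had an unadjusted p below 0.05. The smallest adjusted p of any cluster was 0.409. The median log2 difference was -0.007 over the 12 clusters and 0.005 over all clusters.

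Adarb1 itself was checked first. Here and throughout, the signals of a genotype are given with replicate 1 first. Adarb1 had log2 signals of 10.50 and 10.45 in wild type against 9.16 and 8.96 in the knockout, a log2 difference of -1.42 (SE 0.12, 95% interval -1.71 to -1.13, unadjusted limma p 2.57e-05). The array medians lay between 6.03 and 6.09. Markers of neurons, astrocytes, oligodendrocytes and microglia, 22 clusters in all, had similar means in all 4 arrays, for example 11.32 to 11.37 for 7 neuronal clusters, and Mog was the only one with an unadjusted p below 0.05 (log2 difference -0.35). Markers of tissue next to the brain did vary. Of 12 pituitary clusters 10 were higher in the knockout, and their mean was 5.75 and 5.53 in wild type and 6.47 and 6.28 in Adar2-/-. The mean was carried by Prl and Gh (log2 differences 4.12 and 3.17), which with Pomc (0.51) had an unadjusted limma p below 0.05, and the median difference was 0.17. Salivary gland clusters (10) had a mean of 6.62 in Adar2-/- replicate 1 and of 4.63 to 4.78 in the other arrays, a difference carried by Bpifa2, Pip, Smr3a and Amy1. Olfactory bulb clusters (7) had a mean of 7.60 in Adar2-/- replicate 2 and of 8.05 to 8.21 in the others. Of 8 blood clusters 6 were lower in the knockout, with means of 7.62 and 7.43 in wild type and 7.01 and 7.60 in Adar2-/-. The part of these tissues in the values of the snoRNP genes was not tested. In whole-brain RNA, fewer cells of a type and less RNA per cell cannot be told apart.

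Naf1 (transcript cluster 17501550, chromosome 8, 66860217 to 66890564, plus strand) had log2 signals of 7.55 and 7.59 in wild type and 7.15 and 7.21 in Adar2-/-. The genotypes were well separated, and replicates of a genotype differed by 0.06 at most. The group means were 7.57 ± 0.028 (SD, n = 2) and 7.18 ± 0.042 (SD, n = 2). The log2 difference was -0.39 (SE 0.10, 95% interval -0.64 to -0.14), with an unadjusted limma p of 0.00973 and an adjusted p of 0.834. Of all clusters 373, or 1.10%, had a lower p, and 488 had a more negative difference. The difference stayed between -0.43 and -0.36 in 12 alternative settings, with unadjusted limma p from 0.00538 to 0.0423, each array left out in turn included. It was -0.36 without the array high in salivary genes and -0.42 without the array low in olfactory bulb genes.

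Shq1 (cluster 17469473, chromosome 6, 100573081 to 100671157, minus strand) had log2 signals of 7.07 and 6.85 in wild type and 6.57 and 6.63 in Adar2-/-. The genotypes did not overlap, although the wild-type arrays were 0.22 apart, more than the knockout arrays. The log2 difference was -0.36 (SE 0.12, 95% interval -0.66 to -0.06), with an unadjusted limma p of 0.0259 and an adjusted p of 0.834. The call at an unadjusted p of 0.05 was lost without wild type replicate 1 or without either knockout array, and with the replicate number as a block (p 0.0518). The limma p was 0.101 without wild type replicate 1, where the difference was -0.25, and it was 0.120 and 0.0848 without Adar2-/- replicates 1 and 2, at -0.33 and -0.39. Shq1 was lower in each of these settings and at -0.47 without wild type replicate 2, so the sign did not depend on any 1 array, whereas the call did.

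**Figure D1:**
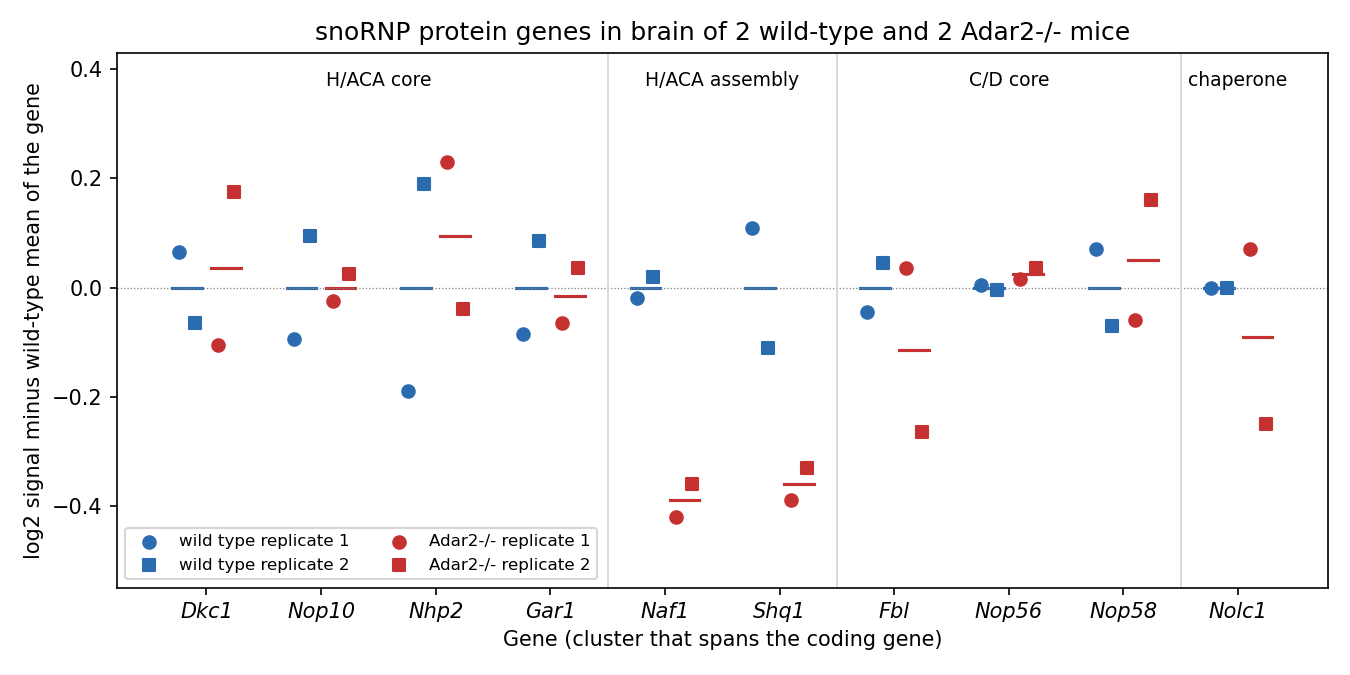
Log2 signal of each array minus the wild-type mean of the gene, for the mRNA cluster of each of the 10 genes (points, single arrays; bars, genotype means; n = 2 per genotype). The knockout points of Naf1 and Shq1 lie below all wild-type points, whereas the knockout points of the other genes lie on both sides of 0, except for Nop56, whose 4 points nearly coincide.

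Promoter sequences from RefSeq (GRCm38.p6) were matched by symbol for 8 of the 10 genes, Naf1 and Fbl being the others. The 250 bases before the start are shown for Shq1, which was lower in the knockout, and for Gar1, an H/ACA core gene with a log2 difference of -0.02. Both lie on the minus strand and are written 5′ to 3′ as transcribed. Capitals mark the core of ETS factor sites, CGGAAG, and the GC box, GGGCGG, which on the opposite strand read CTTCCG and CCGCCC. The Shq1 window is chr6:100671158-100671407 and the Gar1 window is chr3:129831397-129831646. The RefSeq gene spans reach 100671183 for Shq1 and 129831407 for Gar1, so the last bases of both windows lie inside the gene span.
Shq1: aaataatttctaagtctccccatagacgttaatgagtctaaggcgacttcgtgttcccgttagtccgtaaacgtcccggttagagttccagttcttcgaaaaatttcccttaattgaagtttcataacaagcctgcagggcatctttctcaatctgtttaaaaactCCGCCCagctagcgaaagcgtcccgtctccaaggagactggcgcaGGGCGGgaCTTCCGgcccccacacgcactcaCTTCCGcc
Gar1: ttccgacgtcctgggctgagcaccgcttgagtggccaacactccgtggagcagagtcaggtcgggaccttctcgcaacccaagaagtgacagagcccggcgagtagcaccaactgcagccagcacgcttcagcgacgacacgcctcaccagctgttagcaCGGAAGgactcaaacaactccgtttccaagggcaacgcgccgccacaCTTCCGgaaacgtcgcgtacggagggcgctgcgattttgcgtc

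The ETS core was found in 4 of the 8 windows (Nhp2, Gar1, Shq1 and Nolc1), and in 13.6% of 32851 promoter windows of the same length. In Shq1 the 2 matches began 31 and 8 bases before the start of the promoter entry, and in Gar1 they began 90 and 43 bases before it. The Shq1 match at 8 bases lies inside the RefSeq gene span. The GC box was found in 5 of 8 windows (Nhp2, Shq1, Nop56, Nop58 and Nolc1) and in 32.7% of all. The sequence CCAAT was found in 2 of 8 (Nhp2 and Nop56) against 33.8%, TATAAA in 1 of 8 (Dkc1) against 12.4%, and the E-box CACGTG in 0 of 8 against 6.02%. All were searched on both strands, and no match of one motif overlapped a match of another in these 8 windows.

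The 4 core proteins of H/ACA particles showed no difference between genotypes beyond replicate spread. Dkc1, the pseudouridine synthase itself (cluster 17535930, chromosome X, 75095854 to 75109777, plus strand), had log2 signals of 7.06 and 6.93 in wild type and 6.89 and 7.17 in Adar2-/-. The lowest and the highest value both came from knockout arrays. The log2 difference was 0.04 (95% interval -0.30 to 0.37, unadjusted limma p 0.805), so on the linear scale the interval ran from 0.812-fold to 1.29-fold.

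Nop10, a small protein that contacts dyskerin near its active site (cluster 17374238, chromosome 2, 112261926 to 112263269, plus strand), had 10.10 and 10.29 in wild type and 10.17 and 10.22 in Adar2-/-. The genotype means were equal, with a 95% interval of -0.29 to 0.29. Gar1, which is needed for the catalytic cycle of the mature particle (cluster 17410323, chromosome 3, 129824912 to 129831396, minus strand), had 6.79 and 6.96 in wild type and 6.81 and 6.91 in Adar2-/-. Both knockout values lay between the wild-type values, and the log2 difference was -0.02 (95% interval -0.30 to 0.27, unadjusted limma p 0.902). Naf1 and Gar1 bind the same surface of dyskerin one after the other, and their clusters gave log2 differences of -0.39 and -0.02. The difference between these 2 values was not tested.

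Nhp2, which binds the H/ACA RNA (cluster 17249347, chromosome 11, 51619735 to 51623714, plus strand), varied most among the core genes. Its log2 signals were 7.79 and 8.17 in wild type and 8.21 and 7.94 in Adar2-/-, so replicates of a genotype were 0.38 and 0.27 apart. The log2 difference of 0.10 was smaller than either gap (95% interval -0.33 to 0.52, unadjusted limma p 0.597).

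The C/D core proteins and Nolc1 had unadjusted limma p from 0.433 to 0.813. Nop56 (cluster 17376252, chromosome 2, 130274412 to 130279313, plus strand) was the most even gene of the set, at 8.94 and 8.93 in wild type and 8.95 and 8.97 in Adar2-/-. The genotypes did not overlap, but the log2 difference was 0.03 (95% interval -0.22 to 0.27, unadjusted limma p 0.813) and turned to -0.015 after centring the arrays, and 17.7% of all clusters had both knockout arrays above both wild-type arrays. The opposite order, seen in Naf1, Shq1 and 1 further Nop56 cluster, was seen in 16.5% of all clusters. Nop58, its partner in the particle (cluster 17213295, chromosome 1, 59685006 to 59712124, plus strand), had 7.25 and 7.11 in wild type and 7.12 and 7.34 in Adar2-/-, with a log2 difference of 0.05 (95% interval -0.26 to 0.36, unadjusted limma p 0.707).

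Fbl, the methyltransferase (cluster 17475777, chromosome 7, 28169727 to 28179269, plus strand), had 7.70 and 7.79 in wild type and 7.78 and 7.48 in Adar2-/-. Only Adar2-/- replicate 2 lay below the wild-type arrays. The log2 difference was -0.12 (95% interval -0.45 to 0.22, unadjusted limma p 0.433) and 0.04 without that array. Nolc1 (cluster 17359902, chromosome 19, 46075863 to 46085530, plus strand) had 7.90 on both wild-type arrays, and 7.97 and 7.65 in Adar2-/-. Again the single low value was Adar2-/- replicate 2, and the log2 difference of -0.09 (95% interval -0.43 to 0.25, unadjusted limma p 0.539) became 0.07 without it. That array was also the one low in olfactory bulb markers, whose part in these values was not tested. For the mRNA clusters of the 8 genes other than Naf1 and Shq1, every 95% interval lay within 0.731-fold to 1.43-fold. At the SE typical of all clusters, 0.121, a log2 difference of 0.30, or 1.23-fold, was needed for an unadjusted p of 0.05.

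**Figure D2:**
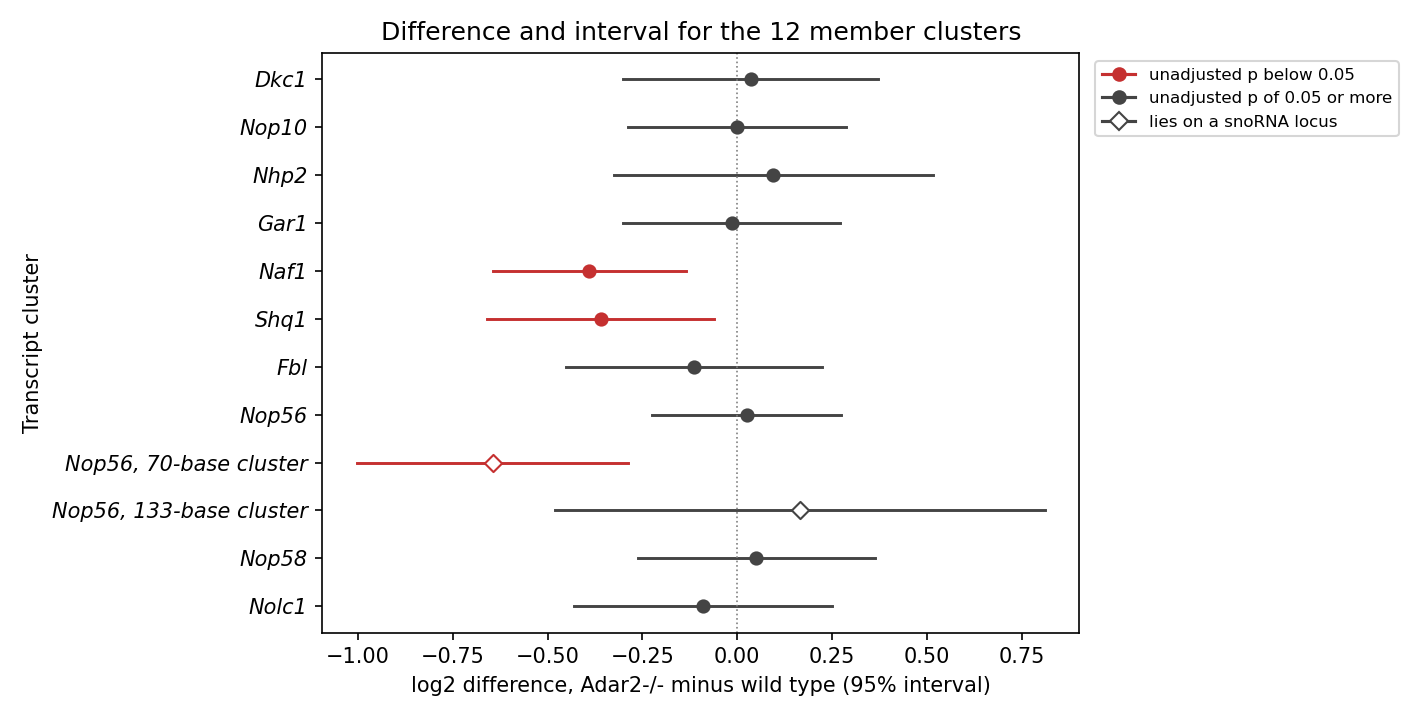
Log2 difference of Adar2-/- minus wild type with its 95% interval from limma, for all 12 clusters that carry a member's symbol (red, unadjusted p below 0.05; open diamonds, clusters that lie on a snoRNA locus). The intervals of Naf1, Shq1 and the 70-base Nop56 cluster lie below 0 and the other 9 include it.

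The other 2 clusters named Nop56 did not measure its coding exons as a whole. One spans 70 bases (cluster 17376274, chromosome 2, 130277697 to 130277766, plus strand) and the other 133 bases (cluster 17376272, chromosome 2, 130276237 to 130276369, plus strand). In the RefSeq gene table of GRCm38.p6 each lies 100% within a locus annotated as a snoRNA, LOC115489601 and LOC115489609, so the symbol Nop56 names the host gene here. The 70-base cluster had 4.64 and 4.58 in wild type and 4.14 and 3.79 in Adar2-/-. Its log2 difference was -0.65 (SE 0.15, 95% interval -1.003 to -0.287, unadjusted limma p 0.00473, adjusted p 0.834). The knockout signals lay within 3.49 to 4.40, the range of 4 clusters of Y-linked genes in these female mice, so the size of this difference is not fixed. Without wild type replicates 1 and 2 the difference was about as large, -0.615 and -0.675, with an unadjusted limma p of 0.0668 and 0.0541. The 133-base cluster, whose probes can cross-hybridize, had 6.76 and 7.56 in wild type and 7.23 and 7.42 in Adar2-/-. Both knockout values lay between the wild-type values, with a log2 difference of 0.17 (95% interval -0.48 to 0.81, unadjusted limma p 0.553). Its sign depended on the wild-type arrays, with 0.565 (p 0.0321) without wild type replicate 2 and -0.235 (p 0.199) without wild type replicate 1. With the 2 clusters left out, an alternative chosen after seeing the data, the log2 differences had a median of -0.007 and 2 of 10 clusters were lower and 0 higher at an unadjusted p below 0.05.

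Dkc1, Nop56 and Nop58 are themselves snoRNA hosts, and 9 clusters lay wholly inside their mRNA clusters on the same strand, the 2 short Nop56 clusters among them. No such cluster lay inside the other 7 genes. The Nop56 mRNA cluster was flat on all 4 arrays, while the C/D RNAs from its introns were not. Snord57, about 3.6 kb from the start of the mRNA cluster (chromosome 2, 130278016 to 130278088), had log2 signals of 11.69 and 12.46 in wild type and 11.90 and 12.11 in Adar2-/-. Snord110 (chromosome 2, 130275506 to 130275573) had 6.71 and 7.38 in wild type and 6.94 and 6.92 in Adar2-/-. In both RNAs the wild-type arrays enclosed the knockout arrays, and the gap between wild-type arrays was 0.77 and 0.67. The log2 differences were -0.07 (unadjusted limma p 0.793) and -0.12 (unadjusted limma p 0.622), and both turned positive without wild type replicate 2. Snord110 was at -0.45 (p 0.0237) when the other wild-type array was left out.

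The small RNA clusters inside Nop58 were mixed, and in some of them the wild-type arrays did not enclose the knockout arrays. Snord11 (chromosome 1, 59704790 to 59704873), whose probes can cross-hybridize, had 8.51 and 9.52 in wild type and 9.52 and 8.99 in Adar2-/-, with a log2 difference of 0.24 (95% interval -0.62 to 1.10, unadjusted limma p 0.519). Snord70 (chromosome 1, 59691934 to 59692020), whose probes can cross-hybridize, had 4.60 and 5.22 in wild type and 4.21 and 4.61 in Adar2-/-, a log2 difference of -0.50 (95% interval -1.09 to 0.09, unadjusted limma p 0.0831). The difference was -0.19 without wild type replicate 2, -0.30 without Adar2-/- replicate 1 and -0.81 without wild type replicate 1, the last with p 0.0455, and the replicate block gave p 0.0167. Adar2-/- replicate 2 and wild type replicate 1 were practically equal for this RNA, and the 4.21 of Adar2-/- replicate 1 lay within the range of the Y-linked clusters, so the size of the difference is not fixed. An unnamed snoRNA cluster of 81 bases (cluster 17213317, the locus Gm26287) had the largest gap between wild-type arrays, 4.55 against 6.22, with 5.78 and 5.19 in Adar2-/- between them. A second unnamed cluster, of 84 bases (cluster 17213315), had 3.95 and 4.23 in wild type and 3.85 and 3.43 in Adar2-/-, and no signal above the Y-linked range. Its log2 difference was -0.45 (unadjusted limma p 0.0473), and the call was lost in 5 of 11 alternatives, with -0.24 (p 0.267) without Adar2-/- replicate 2, -0.31 (p 0.296) and -0.59 (p 0.0999) without wild type replicates 2 and 1, p 0.125 with the replicate block and p 0.0516 with an intensity trend. The snoRNA cluster inside Dkc1, of 118 bases (the locus Gm25520), had 2.19 on both wild-type arrays and 2.37 and 2.55 in Adar2-/-, below the Y-linked range throughout. Its log2 difference was 0.27 (unadjusted limma p 0.0568), and 0.36 (p 0.0382) without Adar2-/- replicate 1.

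Wild type replicate 2 was above wild type replicate 1 in 7 of the 9 clusters inside member genes, with a median gap of 0.67. For the 10 mRNA clusters the corresponding count was 5 of 10 and the median gap 0.02. Of all 95 clusters named Snord, 82 were higher in wild type replicate 2 than in replicate 1, with a median gap of 0.20, and 27 of 36 clusters named Snora, with a median gap of 0.33. In the Snord and Snora clusters the knockout arrays differed the other way. Only 9 of 95 Snord and 6 of 36 Snora clusters were higher in Adar2-/- replicate 2 than in replicate 1, with median gaps of -0.25 and -0.17. Of the 9 clusters inside member genes 4 were higher in Adar2-/- replicate 2, with a median gap of -0.02. Among 1330 clusters described as snoRNA, 643 were higher in wild type replicate 2 than in replicate 1, with a median gap of 0. The corresponding knockout count was 581, with a median gap of -0.05. Over all clusters the median gap was 0 in wild type and -0.01 in Adar2-/-. Whether the gap of the Snord and Snora clusters came from the mice or from the preparation of the RNA cannot be told apart.

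**Figure D3:**
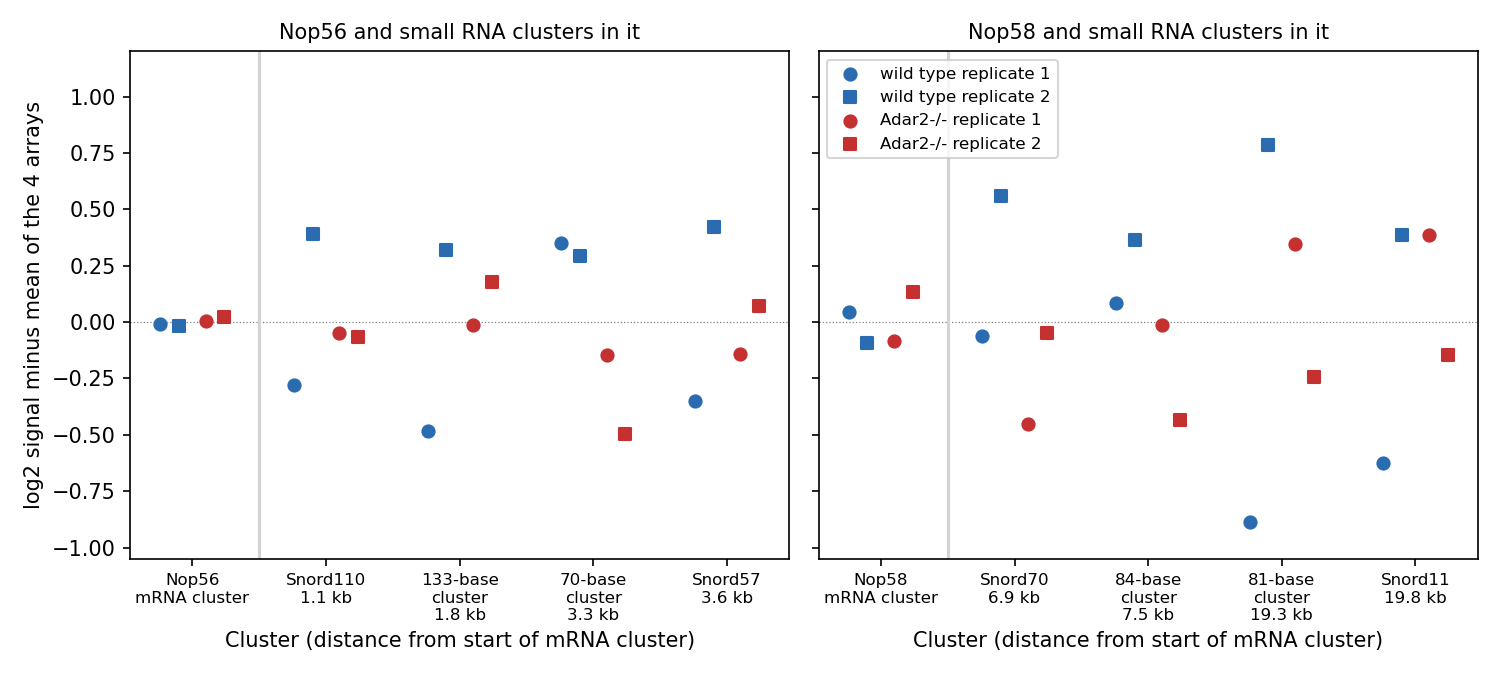
Log2 signal of each array minus the mean of the 4 arrays, for the Nop56 and Nop58 mRNA clusters and the small RNA clusters inside them, ordered by distance from the start of the mRNA cluster (points, single arrays). The 4 arrays nearly coincide for Nop56 mRNA, at 8.93 to 8.97, whereas Snord57 ran from 11.69 to 12.46, with both extremes in wild type.

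The client RNAs of the 2 classes can be set beside their proteins. Of 36 clusters named Snora, the H/ACA RNAs, 32 were higher in the knockout, with a median log2 difference of 0.30, and 9 were higher and 1 lower at an unadjusted limma p below 0.05, against 3.64% and 2.31% of all clusters. Their mean log2 signals were 7.72 and 8.03 in wild type and 8.38 and 8.17 in Adar2-/-. By medians, the gap of 0.33 between the wild-type arrays was as large as the difference of 0.30 between genotypes. Of 95 clusters named Snord, the C/D RNAs, 45 were higher and 50 lower, with a median of -0.04, and 6 were higher and 1 lower by the same rule. The telomerase RNA Terc, which carries an H/ACA domain and is bound by the same core proteins, had 9.62 and 10.53 in wild type and 9.96 and 10.10 in Adar2-/-, a log2 difference of -0.05 (unadjusted limma p 0.881). Terc was singled out after its values were seen. No relation between proteins and RNAs was tested across the 4 arrays.

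The wider pathway was described with 6 lists of other genes, 101 clusters of 82 genes, of which 4 were higher and 2 lower at an unadjusted limma p below 0.05. These shares are near those of all clusters, 3.64% and 2.31%, and are no result about the lists. No cluster of the lists had an adjusted p below 0.05. Their median log2 difference was -0.05. The assembly machinery outside the 10 genes comprises the helicase-like ATPases Ruvbl1 and Ruvbl2, their cofactors Rpap3 and Pih1d1, Nufip1, Znhit3, Znhit6, the chaperone Hsp90ab1 and the C/D core protein Nhp2l1. Of its 10 clusters 1 was lower, 0 were higher, and the median was -0.12. The lower one was Ruvbl1 (cluster 17460649, chromosome 6, 88465409 to 88497572, plus strand), at 8.47 and 8.23 in wild type and 8.04 and 8.02 in Adar2-/-. Its log2 difference was -0.32 (95% interval -0.62 to -0.02, unadjusted limma p 0.0421, adjusted p 0.834). The genotypes did not overlap, but the call was lost in 6 of 12 alternatives. In 5 of them the difference was about as large (-0.33 to -0.281, p up to 0.149), and without wild type replicate 1 it was -0.20 (p 0.143). Ruvbl2 had 8.19 and 8.45 in wild type and 8.15 and 8.10 in Adar2-/- (log2 difference -0.20, unadjusted limma p 0.178). Nhp2l1, the fourth C/D core protein, had 8.72 and 8.81 in wild type and 8.95 and 8.87 in Adar2-/- in its cluster of unique probes (log2 difference 0.15, unadjusted limma p 0.225).

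None of the 9 clusters for snoRNA capping, transport and Cajal bodies, the 4 for the telomerase particle or the 13 for stand-alone pseudouridine synthases, which act without a guide RNA, had an unadjusted limma p below 0.05. Their medians were -0.05, 0.07 and -0.03. Among 34 clusters of the U3 snoRNP and the small subunit processome, which process the ribosomal RNA precursor, 1 was lower and 1 higher. Nop14 (chromosome 5, 34638532 to 34660148, minus strand) had 7.09 and 7.30 in wild type and 6.85 and 6.84 in Adar2-/- (log2 difference -0.35, unadjusted limma p 0.0263, adjusted p 0.834). A cluster named Bms1 (chromosome 6, 118418408 to 118419807) had 4.85 and 5.13 in wild type and 5.52 and 5.40 in Adar2-/- (log2 difference 0.47, unadjusted limma p 0.0138, adjusted p 0.834). It lies on the plus strand, whereas the RefSeq promoter table places Bms1 on the minus strand. The cluster that spans the Bms1 gene had 7.02 and 6.96 in wild type and 7.22 and 7.18 in Adar2-/- (log2 difference 0.21, unadjusted limma p 0.0892). The Nop14 call was lost without wild type replicate 2 (-0.245, p 0.095) and, at about the same size, without Adar2-/- replicates 1 and 2 (-0.355, p 0.0979, and -0.345, p 0.104). The short Bms1 cluster lost its call without wild type replicate 1 (0.33, p 0.0728) and without Adar2-/- replicates 1 and 2 (0.41, p 0.105, and 0.53, p 0.06). Without any 1 array, 0 to 3 clusters of this list had an unadjusted p below 0.05.

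Among 31 clusters of the nucleolus and RNA polymerase I list, 3 were higher and 0 lower. All 3 carried the symbol Taf1d, a subunit of the polymerase I selectivity factor, and like the short Nop56 clusters they lie on snoRNA loci of that host gene. The 2 with the lowest p had 6.50 and 5.81 in wild type and 7.03 and 7.15 in Adar2-/- (cluster 17514824, log2 difference 0.94, unadjusted limma p 0.00700, adjusted p 0.834), and 9.45 and 9.98 in wild type and 11.20 and 10.20 in Adar2-/- (cluster 17514828, with 8 probes that can cross-hybridize, log2 difference 0.98, unadjusted limma p 0.0309, adjusted p 0.834). The first ran from 0.59 without wild type replicate 2 to 1.28 without wild type replicate 1, and its call was lost at about the same size without Adar2-/- replicates 1 and 2 (0.995, p 0.0785, and 0.875, p 0.103). The second ran from 0.485 without Adar2-/- replicate 1 (p 0.198) to 1.485 without Adar2-/- replicate 2, and its call was lost in 4 of 11 alternatives, among them either wild-type array left out (0.72, p 0.278, and 1.25, p 0.109) and the replicate block (p 0.108). Without the 8 clusters on snoRNA loci, 23 clusters of this list remained, of which 0 were higher and 0 lower, and over all 6 lists 1 of 93 was higher and 2 were lower.

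**Figure D4:**
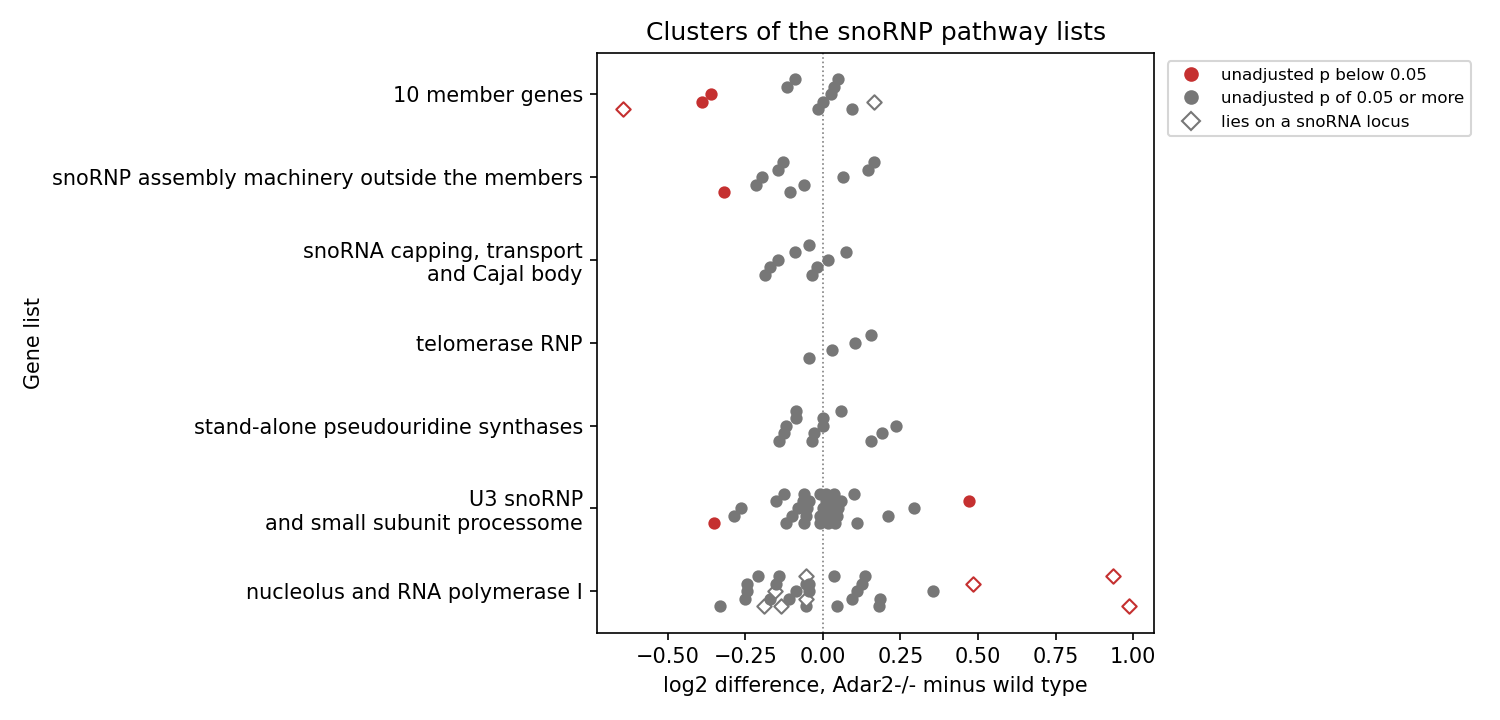
Log2 difference of Adar2-/- minus wild type for each cluster of the 10 genes and of the 6 pathway lists (points are clusters, spread vertically within a list for visibility; red, unadjusted p below 0.05; open diamonds, clusters on a snoRNA locus). The clusters furthest from 0, a Nop56 cluster at -0.65 and Taf1d clusters at 0.94 and 0.98, are open diamonds, and the lowest filled points are Naf1, Shq1, Nop14, a cross-hybridizing Taf1d cluster at -0.33 that was not called, and Ruvbl1.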

How the data were processed

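The authors deposited 1 table of normalized log2 signals per transcript cluster and array, rounded to 2 decimals. The submitters' processing notes name Affymetrix Expression Console and RMA, without versions. RMA removes background, quantile-normalizes the arrays and summarises probes, so levels are relative between arrays and compressed at low signal. The table gives no detection calls. It does not name the build of its coordinate columns, and some of its transcript descriptions quote different positions on the older assembly NCBIM37. Its columns of fold changes, log ratios and p-values from the authors' own comparisons were not used.

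Groups and replicate numbers were taken from sample titles. Knockout and wild type were compared on all 33793 clusters in R 4.3.3 by a linear model with genotype alone and moderated, two-sided statistics (limma 3.58.1), with Benjamini-Hochberg adjustment over all clusters. Intervals are 95% intervals from the same fit. The mice came from crosses of heterozygous parents and were siblings per the methods, which do not give the litter of each array. The p-values reflect only spread between these arrays, and 2 arrays per genotype limit the precision. The spread of each cluster was moderated towards a value estimated over all clusters (prior SD 0.125, 3.79 prior degrees of freedom). For a cluster with close replicates, such as Naf1, the p-value rests more on that value than on its own arrays. An exact permutation test of 2 against 2 cannot go below 0.333. The fit was tested on simulated data.

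Every cluster with a member's symbol was used, without a filter on signal. Named besides were Adarb1, all clusters wholly inside a member's cluster on the same strand, and at most 2 clusters per pathway list by lowest p below 0.05; Terc, Ruvbl2, Nhp2l1, Mog and the longer Bms1 cluster were added after their values were seen. Of the listed symbols, those without a cluster were left out. A cluster was placed on a snoRNA locus where a snoRNA or snRNA of the RefSeq table (GRCm38.p6) covered at least 50% of it. All member clusters overlapped the RefSeq span of their gene. The members, lists and motifs were chosen with earlier results of these data known. Alternatives were other scalings, a filter on dim clusters, other variance models, the replicate number as a block, clusters that can cross-hybridize left out, and each array left out. Plots were drawn with matplotlib 3.10.9 in Python 3.11.15.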

Additional observations from a re-analysis of the deposited data

How the results depend on the processing

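The settings were compared by counts at an unadjusted limma p below 0.05 and by the log2 difference of single clusters. No cluster passed an adjusted p of 0.05 in limma under any of the 12 alternatives. The 3 member clusters became 1 to 3 with single arrays left out, 1 being reached without wild type replicate 1. The 3 without wild type replicate 2 were not the same clusters, being Naf1, Shq1 and the 133-base Nop56 cluster, the last higher in the knockout (0.565), while the 70-base Nop56 cluster was no longer called. The count over all clusters went from 2009 to between 1221 and 1801 with single arrays left out, and to 989 among clusters above the median signal, where fewer were tested. The balance of 1230 higher and 779 lower became 801 and 1229 after centring arrays on their medians, 896 and 944 after quantile normalization and 924 and 915 after cyclic loess normalization, so the background for lower clusters depends on the scaling. The nucleolus and RNA polymerase I list went from 3 to 5 after centring, to 5 among clusters above the median signal, to 6 with an intensity trend, and to 0 to 2 with single arrays left out. The U3 and processome list went from 2 to 4 after centring and with an intensity trend, and to 0 to 3 with single arrays left out. The assembly machinery went from 1 to 0 after quantile or cyclic loess normalization and with the replicate block, and to 0 to 1 with single arrays left out. The pseudouridine synthase and telomerase lists went from 0 to at most 1.

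Small differences changed sign. After centring, Dkc1 was at -0.005 and Nop56 mRNA at -0.015. With single arrays left out the values ran from -0.105 to 0.175 for Dkc1, -0.265 to 0.035 for Fbl, -0.1 to 0.07 for Gar1, -0.095 to 0.285 for Nhp2, -0.25 to 0.07 for Nolc1, -0.06 to 0.16 for Nop58, -0.235 to 0.565 for the 133-base Nop56 cluster, -0.265 to 0.745 for Snord11, -0.45 to 0.22 for Snord110, -0.455 to 0.315 for Snord57 and -0.735 to 0.935 for cluster 17213317. The cause was not tested. Where 1 array of a genotype was left, its spread was taken from the other genotype.

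Arrays with the same replicate number did not deviate together (Pearson's r 0.0516 across clusters), so they were not treated as pairs. With the replicate block 2 members had an unadjusted p below 0.05, Shq1 having 0.0518, and 1693 clusters did so in all.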

Other observations

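Clusters that carry the symbol of a coding gene but lie at least 90% on a RefSeq snoRNA or snRNA locus were counted over the whole table, after the short Nop56 and Taf1d clusters had been seen. There were 36 of them under 26 symbols. At an unadjusted limma p below 0.05, 5 were higher and 1 was lower in the knockout (3.64% and 2.31% of all clusters). The Taf1d and Nop56 clusters that prompted the count gave 3 of the 5 and the 1 lower, so nothing is read from it. In all, 21 were higher and 15 lower irrespective of p, with a median log2 difference of 0.13. Wild type replicate 2 was above wild type replicate 1 in 26 of the 36, with a median gap of 0.30.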
